A study of Mus musculus with 6 samples.

Results

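The renin-angiotensin and endothelin systems were followed in mouse heart ventricle through 9 genes chosen by symbol: the precursor gene Agt, the enzyme genes Ren1, Ace and Ece1, the peptide gene Edn1, and the receptor genes Agtr1a, Agtr2, Ednra and Ednrb. Of these, 8 have a row among the 18181 genes of the expression table, and Ren1, which encodes renin, was not analysed here. Aged ventricles came from C57BL6 mice of 24 to 26 months and young ventricles from mice of the same inbred strain at 6 to 8 weeks, with 3 libraries of separate samples per age and no treatment or engineered allele named in the labels. The labels do not say whether every sample is its own mouse, so each p-value reflects the scatter of these samples alone. Levels are given in FPKM, fragments per kilobase of transcript scaled to the mapped fragments of the library, which carry no read totals. The depth is therefore unknown, no counting interval can be given, and a gene without fragments is described as listed at 0.

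In the renin-angiotensin system, renin cuts angiotensinogen, the product of Agt, to angiotensin I, and the endothelial enzyme ACE trims this to angiotensin II, which acts on the AT1 receptor (Agtr1a, and in rodents also the paralogue Agtr1b) and on the AT2 receptor (Agtr2). In the endothelin system, the Edn1 product is cut by furin-type proteases and then by the endothelin-converting enzyme ECE-1 to endothelin-1, a strong vasoconstrictor that acts on the ETA receptor (Ednra) of smooth muscle and cardiomyocytes and on the ETB receptor (Ednrb), prominent on endothelium. Both peptides are known in the heart for vasoconstriction, hypertrophic growth of cardiomyocytes and fibroblast activation.

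Aged ventricle had more messenger RNA of the endothelin-1 gene, while the RNA of both endothelin receptors and of the converting enzyme did not pass the test. Among the angiotensin genes Agtr1a passed by a narrow margin, and Agt and Ace did not pass. Of the 7 members with a mean of at least 1 FPKM, 2 were called higher and 0 lower by limma at a Benjamini-Hochberg adjusted p under 0.05, or 28.6%, where 26.4% of all 11860 tested genes were called (9.32% higher and 17.1% lower). Agt was lower at an unadjusted limma p of 0.0452, which did not hold after adjustment. The aged and young libraries did not overlap for 1 of the 7, Edn1, or 14.3%, against 43.0% of all tested genes. The median log2 difference of the 7 was -0.0078, beside -0.06 for all tested genes. The share called in either direction lies near the background, and the share without overlap lies below it. By direction, 28.6% were higher and 0 lower, beside 9.32% and 17.1% of all tested genes, but this rests on 2 genes. Of these, Agtr1a passed narrowly, so the shares single out no property of the members as a set.

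Aged replicates 1 and 2 stood apart from the other libraries in epithelial RNA. Their 8 markers of stratified epithelium summed to 295 and 475 FPKM, against 1.84 in aged replicate 3 and 1.62 to 2.77 in the young libraries. On the first principal component of the tested genes, which held 67.4% of the variance, they lay at -26.4 and -28.6, aged replicate 3 at -11.3 and the young libraries between 17.8 and 24.4. The 8 cardiomyocyte markers summed to 55086 to 58628 FPKM in aged and 47829 to 51868 in young. The 7 atrial markers, which include Nppa, summed to 61.2 to 164 FPKM in aged and 119 to 251 in young, with overlap. Of the 4 atrial markers tested, 1 (25%) was called higher and 0 lower, beside 9.32% and 17.1% of all tested genes. The presence of atrial tissue was not tested. Sln, another of the atrial markers, was listed at 0 in 4 of the libraries. Over all genes 1105 were higher and 2026 lower, but median-of-ratios scaling gave 1483 and 1507, and quantile normalization 1320 and 1517.

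**Figure D1:**
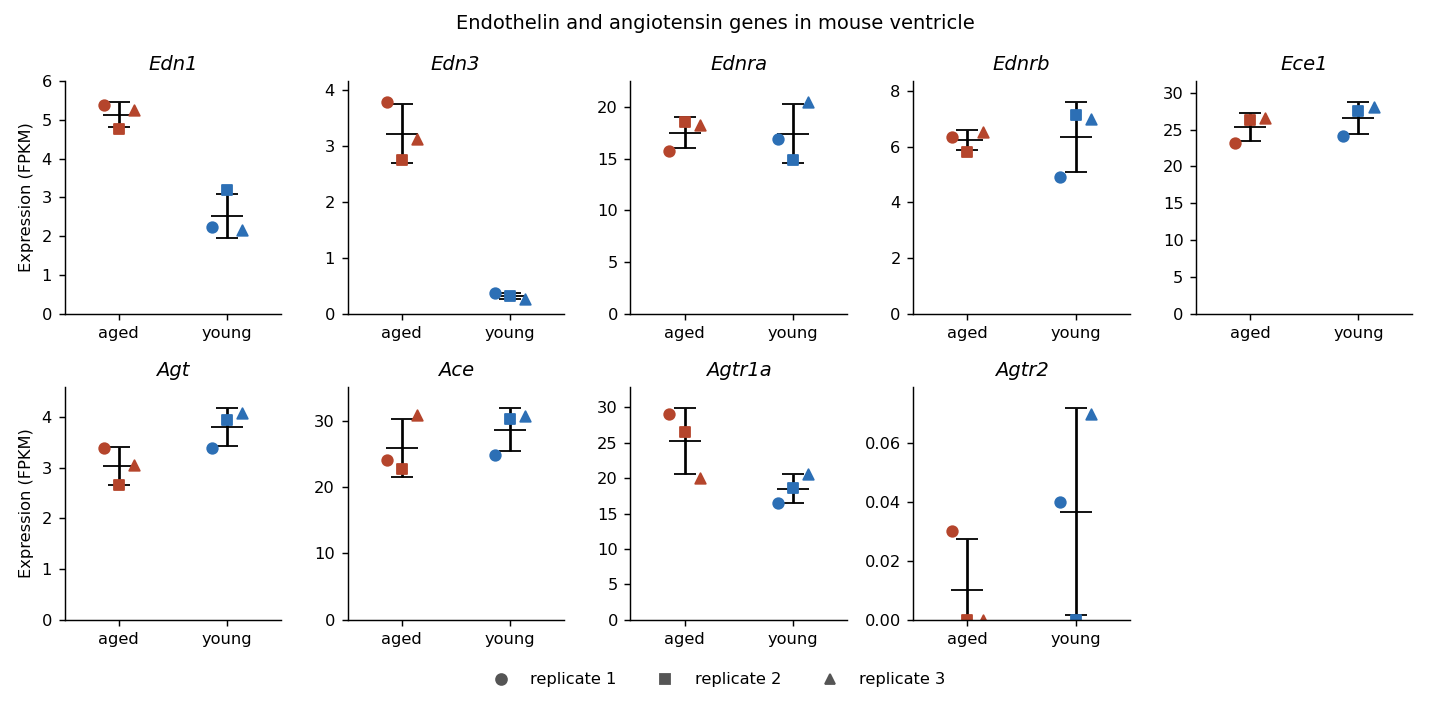
Expression in FPKM of 8 members and of the related gene Edn3 in each of 3 aged (left) and 3 young (right) libraries; symbols mark the replicate, and bars give the mean and SD. Edn1 and Edn3 show no overlap between the ages, while the lowest aged value of Agtr1a, 20.05, lies under the highest young value, 20.5.

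Edn1, the gene of the endothelin-1 precursor (chromosome 13, 42301476 to 42307990, GRCm38), was at 5.38, 4.77 and 5.26 FPKM in the aged libraries and at 2.25, 3.18 and 2.15 in the young libraries. Each aged library lay above each young one, and aged replicate 3 lay between the other aged libraries. The mean was 5.14 ± 0.323 in aged and 2.53 ± 0.568 in young (SD, n = 3 each), 2.03-fold higher. As a difference of log2(FPKM + 1), a scale that shrinks changes of genes with low levels, this was 0.81 (SE 0.124, 95% interval 0.53 to 1.09, limma adjusted p = 0.00231). Setting only aged replicate 3 against the young group gave 0.84, which rests on 1 aged library. The part of the epithelial RNA of aged replicates 1 and 2 in the Edn1 difference was not tested.

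Edn3, which encodes endothelin-3, a ligand that prefers the ETB receptor, rose as well. It is no member of the 9 and was taken from the list of partner genes. Edn3 (chromosome 2, 174760619 to 174784042) was at 3.79, 2.75 and 3.13 FPKM in aged and at 0.37, 0.31 and 0.27 in young libraries, with no overlap. The mean levels of 3.22 ± 0.526 in aged and 0.317 ± 0.0503 in young (SD, n = 3 each) differ 10.2-fold, with a log2 difference of 1.67 (SE 0.133, limma adjusted p = 8.07e-05). The gene reached the minimum of 1 FPKM through its aged libraries alone; in the fit of all genes with no minimum its adjusted p was 0.000538. With 0.1 FPKM added before the logarithm in place of 1, the log2 difference was 2.99. The part of the epithelial RNA of aged replicates 1 and 2 in the Edn3 difference was not tested. Edn2, the gene of the remaining endothelin, was at most at 0.07 FPKM in any library of either age.

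The stretches just before the annotated starts of these ligand genes are shown because both genes were higher in aged ventricle. They are the 250 bases before the RefSeq start on the plus strand of GRCm38.p6, chr13:42301226-42301475 for Edn1 and chr2:174760369-174760618 for Edn3, written 5′ to 3′, with matches to a searched motif in capitals.
Edn1: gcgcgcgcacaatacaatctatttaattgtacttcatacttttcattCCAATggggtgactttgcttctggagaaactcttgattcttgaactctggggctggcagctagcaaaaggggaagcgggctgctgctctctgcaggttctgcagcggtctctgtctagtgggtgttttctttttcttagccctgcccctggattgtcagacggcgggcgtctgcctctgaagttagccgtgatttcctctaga
Edn3: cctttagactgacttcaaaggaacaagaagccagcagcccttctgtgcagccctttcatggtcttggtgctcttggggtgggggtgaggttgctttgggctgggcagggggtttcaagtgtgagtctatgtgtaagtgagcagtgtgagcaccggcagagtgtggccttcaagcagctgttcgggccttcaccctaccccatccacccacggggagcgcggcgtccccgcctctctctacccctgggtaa
Both strands were searched for the AP-1 motif TGANTCA, the hypoxia response motif ACGTG, the SMAD box CAGACA, the GC box GGGCGG, the letters AGATAA bound by factors of the Gata family, the letters TATAAA of the classical core promoter, and the letters CCAAT bound by the factor NF-Y. None of these contains another. The Edn1 window held 1 match, a CCAAT that begins 203 bases before the start, and the Edn3 window held 0 matches. Of all 32851 RefSeq windows of this length, 33.8% hold CCAAT, 32.7% GGGCGG, 17.1% CAGACA, 16.6% ACGTG, 12.4% TATAAA, 9.99% AGATAA and 6.75% TGANTCA. A match is a description of these letters only, and RefSeq gives 1 start for each of these genes.

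The endothelin receptors showed no change past the spread between replicates. Ednra, the ETA receptor gene (chromosome 8, 77663029 to 77724452), was at 15.8, 18.6 and 18.2 FPKM in aged and at 16.9, 14.8 and 20.5 in young libraries. The young libraries spanned the aged ones, and the log2 difference was 0.02 (95% interval -0.24 to 0.28, limma adjusted p = 0.928). Ednrb, the ETB receptor gene (chromosome 14, 103814615 to 103844508), was at 6.33, 5.82 and 6.53 FPKM in aged and at 4.89, 7.14 and 6.98 in young. Its log2 difference was -0.0078 (95% interval -0.296 to 0.28, limma adjusted p = 0.974). Their signs turn with the scaling, to -0.0225 for Ednra on TPM and to 0.0507 and 0.0705 for Ednrb under median-of-ratios scaling and quantiles, so neither has a direction here; the intervals do not show that the levels are equal.

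Ece1, the converting enzyme (chromosome 4, 137862237 to 137965229), was at 23.2, 26.3 and 26.6 FPKM in aged and at 24.1, 27.6 and 28.05 in young. The ages overlapped, with a log2 difference of -0.06 (95% interval -0.25 to 0.12, limma adjusted p = 0.597). Since FPKM are per length, genes of 1 library can be compared. A ratio of Ece1 to Edn1 carries the Edn1 difference given above, so it is not independent of that call. The log2 ratio of Ece1 to its substrate gene Edn1 was 2.28 ± 0.178 in aged and 3.36 ± 0.284 in young (SD, n = 3 each), without overlap (exact permutation test, two-sided, p = 0.1, the smallest that 3 against 3 allows; 0.167 adjusted over 5 ratios). That of Ednra to Ednrb was 1.48 ± 0.176 in aged and 1.45 ± 0.3697 in young, with overlap (exact permutation p = 1).

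Agtr1a, the main AT1 receptor gene of mice (chromosome 13, 30336356 to 30382867), was at 29.1, 26.5 and 20.05 FPKM in aged and at 16.4, 18.6 and 20.5 in young libraries. The highest values were those of aged replicates 1 and 2, and aged replicate 3 lay below young replicate 3. The mean was 25.2 ± 4.65 in aged and 18.5 ± 2.05 in young (SD, n = 3 each), 1.36-fold higher, with a log2 difference of 0.41 (SE 0.132, 95% interval 0.11 to 0.71, limma adjusted p = 0.0478). The call ended without aged replicate 1 (log2 difference 0.31) or 2 (0.37), and without young replicate 1 (0.34), 2 (0.42) or 3 (0.49). From aged replicate 3 alone the difference was 0.11 (limma adjusted p = 0.607). The epithelial markers named above sum highest in the same aged replicates 1 and 2, and their part in the difference was not tested. Reads of the closely related paralogue Agtr1b could be counted here, and Agtr1b itself was not analysed.

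Agtr2, the AT2 receptor gene (chromosome X, 21484624 to 21488833), was at 0.03, 0 and 0 FPKM in aged and at 0.04, 0 and 0.07 in young libraries. It was listed at 0 in 3 of 6 libraries, below the level for testing, so any difference in it was not detectable here. The log2 ratio of Agtr1a to Ednra was 0.51 ± 0.371 in aged and 0.0954 ± 0.196 in young (SD, n = 3 each), with overlap (exact permutation p = 0.2, adjusted 0.25).

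Agt, the angiotensinogen gene (chromosome 8, 124556587 to 124569706), was at 3.39, 2.66 and 3.05 FPKM in aged and at 3.38, 3.94 and 4.08 in young. Aged replicate 1 and young replicate 1 were nearly equal, and the other young values lay above all aged ones. The log2 difference was -0.25 (95% interval -0.50 to -0.0066, limma adjusted p = 0.12), which misses the threshold after adjustment. Hepatocyte markers, from the main site of Agt expression, summed to 0.95 to 2.93 FPKM in aged and 1.12 to 4.56 in young over 6 genes, and adipocyte markers to 0 to 0.83 in aged and 0 to 0.39 in young over 5 genes.

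Ace (chromosome 11, 105967948 to 105989964) was at 24.1, 22.8 and 30.8 FPKM in aged and at 24.9, 30.3 and 30.7 in young, with a log2 difference of -0.15 (95% interval -0.42 to 0.13, limma adjusted p = 0.411). The sign turned to 0.11 where aged replicate 3 stood alone for its age. RefSeq places long non-coding genes across the loci of Ace (Gm11651), Ednra, Ednrb (Gm35197) and Ece1, and no strand marking is stated for these libraries, so reads of such neighbours cannot be told apart.

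**Figure D2:**
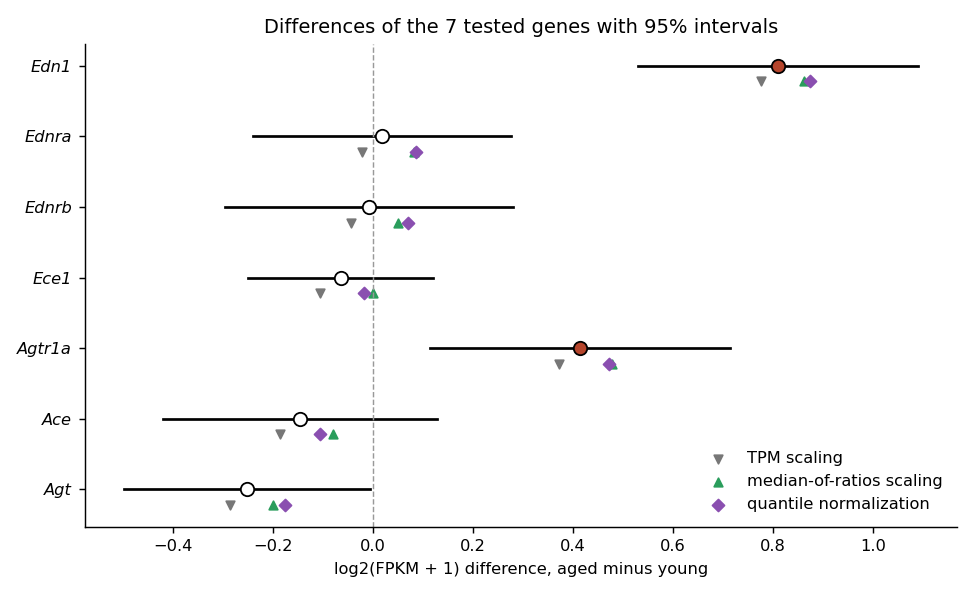
Difference of log2(FPKM + 1), aged minus young, for the 7 members with a mean of at least 1 FPKM; circles and lines are the limma estimate and its 95% interval, filled at an adjusted p under 0.05, and small symbols are estimates under 3 other scalings. Edn1 lies at 0.81 and Agtr1a at 0.41, and the intervals of Ednra, Ednrb, Ece1 and Ace include 0, with the signs of Ednra and Ednrb turning with the scaling.

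In the order of mean levels, Ace, Ece1 and Agtr1a stood first in aged ventricle at 25.9, 25.4 and 25.2 FPKM, and their libraries overlapped, while Ednra followed at 17.5 FPKM without overlap. In young ventricle Ace at 28.6 and Ece1 at 26.6 FPKM overlapped, and Agtr1a at 18.5 lay below Ece1 in every library and overlapped with Ednra at 17.4. Ednrb came after Ednra at both ages, at 6.23 FPKM in aged and 6.34 in young. Edn1 stood above Agt in aged ventricle (5.14 and 3.03 FPKM) and below it in young ventricle (2.53 and 3.8 FPKM), in each case without overlap between their libraries. Edn1 was thus at the 57.03rd percentile of all genes by mean level in aged and at the 44.6th in young, and Agtr1a at the 85.1st in aged and the 80.03rd in young.

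The profiles nearest to that of Edn1 over the 6 libraries, by Euclidean distance of centred log2(FPKM + 1), were those of Clu, Plppr2 and Tmem205 (distances 0.186, 0.189 and 0.219). Clu, which encodes the secreted chaperone clusterin, was at 449 FPKM in aged and 249 in young. Nearest to Agtr1a were Blnk, an adaptor of B cell receptor signalling, the locus LOC115487110 and Gpn3, a GTPase gene (distances 0.145, 0.146 and 0.189), of which Blnk and Gpn3 were not called (limma adjusted p = 0.0752 and 0.0787). The distance describes likeness in these libraries only.

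Several markers of each of 4 cell types known to carry these genes were called lower in aged ventricle, and in whole tissue fewer cells of a type and less RNA per cell cannot be told apart. The 12 endothelial markers summed to 425 to 449 FPKM in aged and 517 to 645 in young, with 7 called lower and 0 higher. The 8 pericyte markers summed to 332 to 354 in aged and 383 to 466 in young, with 6 lower and 0 higher. The 9 fibroblast markers overlapped in their sums, at 1113 to 1228 in aged and 1171 to 1264 in young, with 6 lower and 0 higher. The 7 smooth muscle markers summed to 825 to 987 in aged and 1297 to 1433 in young, and of the 6 tested 3 were lower and 0 higher. This list split in direction: the ages did not overlap for any of the 6, but only 4 had a negative log2 difference. The lower shares of the endothelial, pericyte, fibroblast and smooth muscle lists were 58.3%, 75%, 66.7% and 50%, beside 17.1% of all tested genes. All 5 erythroid markers were also lower, with sums of 9517 to 10921 FPKM in aged and 15368 to 23589 in young, and the part of blood content in the other values was not tested.

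Set against the mean log2 level of the endothelial markers in the same library, Edn1 was at -2.52 ± 0.0854 in aged and -3.92 ± 0.213 in young (SD, n = 3 each), a difference of 1.395. Ece1 was at -0.24 ± 0.0925 in aged and -0.55 ± 0.073 in young, and Ednrb at -2.25 ± 0.0629 in aged and -2.62 ± 0.172 in young, without overlap. Ace overlapped, at -0.22 ± 0.192 in aged and -0.45 ± 0.0763 in young. Relative to pericyte markers, a cell type known to express both receptors, Agtr1a was at 0.12 ± 0.259 in aged and -0.72 ± 0.124 in young, and Ednra at -0.38 ± 0.159 in aged and -0.82 ± 0.297 in young, again without overlap. Agt overlapped relative to fibroblast markers, at -3.85 ± 0.0814 in aged and -4.04 ± 0.0989 in young, and so did Agtr2, at -8.69 ± 0.204 in aged and -8.9 ± 0.477 in young. Since Agtr2 is at or near 0, the added constant sets its level here: the difference was 0.21, and 0.45 with 1 FPKM added in place of 0.1. The smallest exact permutation p of these 8 two-sided comparisons was 0.1, and the smallest adjusted p was 0.16. Ratios to 1 marker list share its level, so they are not independent of one another. A ratio difference is the member's own difference minus that of the marker mean. The own log2 differences, with 0.1 FPKM added, were -0.067 for Ece1, -0.0065 for Ednrb and 0.02 for Ednra. Their ratio differences were 0.31, 0.37 and 0.43, so these gaps lie in the lower marker means. Edn1 and Agtr1a had own differences of 1.01 and 0.43, beside ratio differences of 1.395 and 0.84. Why the marker means were lower was not tested.

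**Figure D3:**
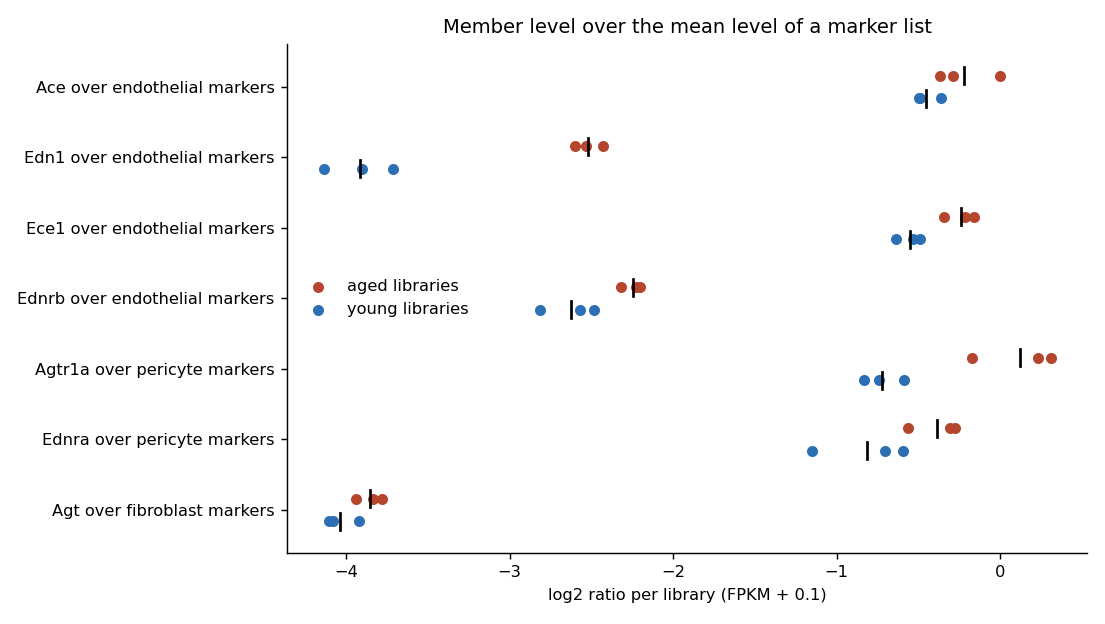
Level of a member minus the mean level of a marker list in the same library, both as log2(FPKM + 0.1), for 3 aged (upper row of each pair) and 3 young libraries; short lines are means. Edn1 over endothelial markers and Agtr1a over pericyte markers show the widest gaps, and Ace and Agt overlap between the ages.

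Other genes of these pathways were read from 5 lists. The lists were chosen with earlier results of these data known, so their shares are no independent test against the background. Together they had 102 tested genes, of which 8 were higher and 32 lower (7.84% and 31.4%, beside 9.32% and 17.1% of all tested genes), and their median log2 difference was -0.15 beside -0.06. The count of lower genes was 17 without aged replicate 1, 12 without young replicate 2 or young replicate 3, 11 from aged replicate 3 alone, and 21 with no minimum level.

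Of 19 tested renin-angiotensin partners, 6 (31.6%) were lower and 2 (10.5%) higher, beside 17.1% and 9.32% of all tested genes. Their median log2 difference was -0.14. Prcp, a lysosomal carboxypeptidase that can cleave angiotensin II, fell to 5.25 ± 0.535 FPKM in aged, against 11.9 ± 2.296 in young (SD, n = 3 each; log2 difference -1.03, limma adjusted p = 0.00101). Prep, a prolyl endopeptidase able to form angiotensin-(1-7) from angiotensin peptides, was at 13.6 ± 1.28 in aged and 18.3 ± 1.12 in young (adjusted p = 0.00858). Rnpep, aminopeptidase B, was at 15.6 ± 0.7998 in aged and 19.5 ± 0.777 in young. The higher genes were Ctsd, the lysosomal protease cathepsin D, at 819 ± 50.99 in aged and 538 ± 26.7 in young (adjusted p = 0.000421), and the mast cell chymase gene Mcpt4, at 2.59, 3.34 and 1.33 in aged and 0.78, 0.8 and 1.19 in young (adjusted p = 0.0279). Mcpt4 reached the minimum of 1 FPKM through its aged libraries alone, and its call ended with no minimum (limma adjusted p = 0.0615).

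The chymase gene Cma1, another mast cell gene of this list, was not called (limma adjusted p = 0.228). It was at 1.69, 3.23 and 0.6 FPKM in aged and at 1, 0.31 and 1.08 in young. It was called without aged replicate 3 (log2 difference 0.94, limma adjusted p = 0.0307). The 6 mast cell markers, which include both chymases, summed to 8.87, 12.9 and 4.64 FPKM in aged replicates 1 to 3 and to 5.97 to 8.02 in young, and their part in these values was not tested. Agtrap, whose product binds the AT1 receptor and promotes its internalization, was at 14.4 ± 0.747 in aged and 13.2 ± 1.17 in young (SD, n = 3 each; limma adjusted p = 0.327). Mas1, the receptor of angiotensin-(1-7), was below the level for testing at 0.36 to 0.91 FPKM in aged and 0.7 to 0.85 in young. The count of lower partners was 3 without aged replicate 1 or young replicate 2 and 2 without young replicate 3, where Rnpep lost its call; that of higher partners was 1 without aged replicate 1, aged replicate 2, young replicate 1 or young replicate 2.

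Among 10 tested endothelin and kinin partners, 5 (50%) were lower and Edn3 alone (10%) higher, beside 17.1% and 9.32% of all tested genes. Their median log2 difference was -0.27. Ramp2, the partner protein that makes the calcitonin receptor-like receptor respond to the vasodilator adrenomedullin, fell to 43.3 ± 3.08 FPKM in aged, against 68.5 ± 8.12 in young (SD, n = 3 each; log2 difference -0.65, limma adjusted p = 0.00183). The receptor gene Calcrl itself was at 6.52 ± 0.903 in aged and 9.103 ± 0.94 in young (adjusted p = 0.0192). Nos3, the endothelial nitric oxide synthase, which ETB signalling is known to activate, fell to 13.7 ± 0.903 in aged, against 17.7 ± 0.752 in young (adjusted p = 0.00867). Cpd, carboxypeptidase D, was at 9.4 ± 0.57 in aged and 12.5 ± 1.14 in young, and its call ended without aged replicate 1, young replicate 2 or young replicate 3, where 2 partners were lower. The endothelial markers described above were lower in the same libraries as Ramp2, Calcrl and Nos3, and their part in these falls was not tested. Furin, the protease of the first processing step, was at 27.07 ± 1.21 FPKM in aged and 29.7 ± 1.19 in young and was not called (limma adjusted p = 0.173).

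**Figure D4:**
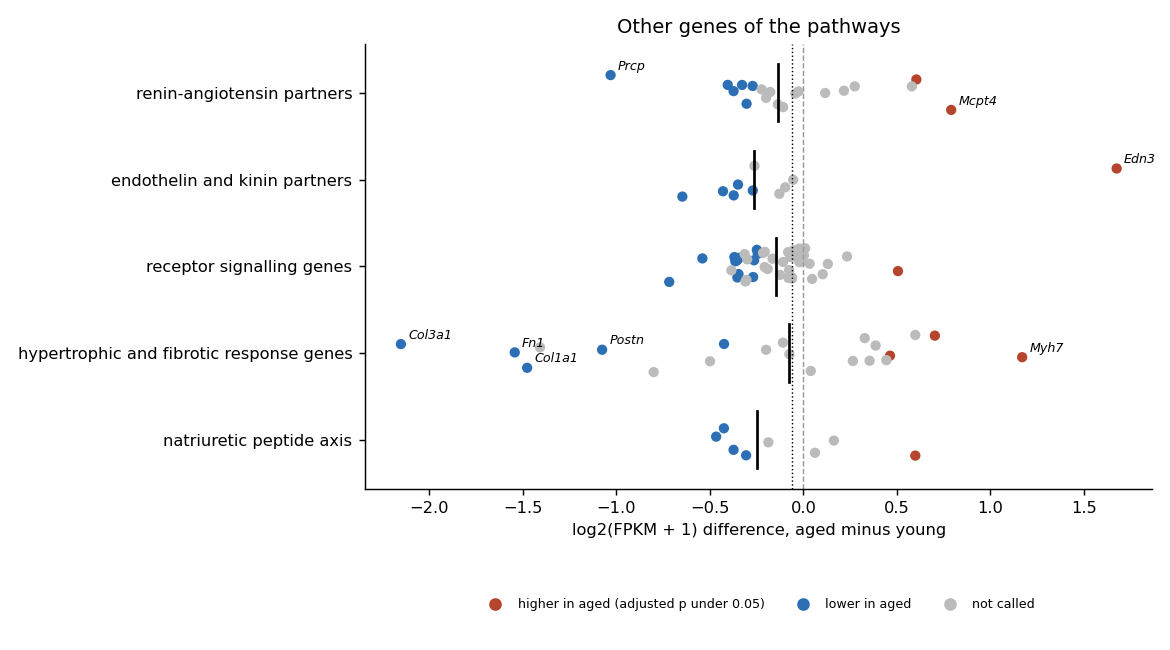
Difference of log2(FPKM + 1), aged minus young, for each tested gene of 5 pathway lists; points are genes, coloured by call, and are spread vertically for legibility, short lines are list medians and the dotted line is the median of all tested genes at -0.06. Edn3 at 1.67 lies farthest to the right, and 32 of 102 genes were called lower.

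Below the receptors, 12 of 44 signalling genes (27.3%) were lower and 1 (2.27%) higher, beside 17.1% and 9.32% of all tested genes. Their median log2 difference was -0.14. The higher one was Gna12, a G protein alpha subunit, at 75.3 ± 4.295 FPKM in aged and 52.7 ± 2.52 in young (SD, n = 3 each; log2 difference 0.51, limma adjusted p = 0.00108). Arhgef1, a guanine nucleotide exchange factor downstream of that G protein class, fell to 20.7 ± 0.739 in aged, against 26.8 ± 0.391 in young (adjusted p = 0.00373). Gnaq, the subunit that couples AT1 and endothelin receptors to phospholipase C, was at 6.53 ± 0.997 in aged and 8.49 ± 0.166 in young (adjusted p = 0.0357), and its call ended with no minimum level (limma adjusted p = 0.0717).

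Further lower genes of this list were Rgs4, Grk6 and Rgs5. Rgs4, a GTPase activator that shortens Gq and Gi signals, was at 7.28 ± 0.316 FPKM in aged and 12.7 ± 1.74 in young (SD, n = 3 each; log2 difference -0.72, limma adjusted p = 0.0014). Grk6, a kinase that desensitizes receptors, was at 8.61 ± 0.382 in aged and 12.96 ± 0.415 in young (adjusted p = 0.00105). Rgs5, which is also a pericyte marker, was at 184 ± 9.04 in aged and 235 ± 30.4 in young (adjusted p = 0.0244), and its call ended with no minimum level (limma adjusted p = 0.0553). The count of lower signalling genes was 6 with no minimum level, 6 without aged replicate 1 and 3 without young replicate 2 or young replicate 3.

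Of 21 tested genes known to respond to angiotensin II or endothelin-1 in heart, 5 were lower and 3 higher. These are 23.8% and 14.3%, beside 17.1% and 9.32% of all tested genes. The ages did not overlap for 38.1% of the list, beside 43.0% of all tested genes, so the counts single out no property of this list. The lower ones encode matrix proteins or a matrix enzyme: Col3a1, Col1a1, Fn1 (7.25 ± 1.47 FPKM in aged and 23.1 ± 4.51 in young, SD, n = 3 each), Postn and Lox. Postn, at 21.3, 18.8 and 34.4 FPKM in aged and 32.8, 60.4 and 69.5 in young, overlapped between the ages, and its call ended with no minimum level (limma adjusted p = 0.0634). The higher ones included Myh7, the slow myosin heavy chain, at 48.5 ± 9.097 in aged and 20.8 ± 0.888 in young (log2 difference 1.17, limma adjusted p = 0.000289), and the adhesion molecule gene Vcam1 at 9.1 ± 0.624 in aged and 6.37 ± 1.097 in young (adjusted p = 0.0189). The median log2 difference of this list was -0.07. Fibroblast markers, which include Col1a1, were lower in 6 of 9, and their part in the lower matrix genes was not tested. The count of lower genes was 3 without aged replicate 1, aged replicate 2 or young replicate 2, and 9 without aged replicate 3.

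Nppa, the atrial natriuretic peptide gene, was at 38.9, 36.3 and 137 FPKM in aged and at 102, 232 and 159 in young. Aged replicate 3 lay within the young range, and Nppa was not called (limma adjusted p = 0.0568) but was without aged replicate 3 (log2 difference -2.02, limma adjusted p = 0.00155) and without young replicate 1 (log2 difference -1.71, limma adjusted p = 0.0458). Nppb, the gene of the B-type peptide, was at 447, 320 and 614 in aged and at 498, 209 and 335 in young (limma adjusted p = 0.323). The ages overlapped for both peptides.

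The last list held natriuretic peptide receptors, the peptide-processing protease Corin and genes of cyclic GMP signalling, including the nitric oxide receptor. Of its 8 tested genes 4 (50%) were lower and 1 (12.5%) higher, beside 17.1% and 9.32% of all tested genes. Their median log2 difference was -0.25. Npr3, the clearance receptor, was the higher one, at 5.33 ± 0.276 FPKM in aged and 3.18 ± 0.211 in young (SD, n = 3 each; log2 difference 0.5986, limma adjusted p = 0.00197). Npr1, the guanylyl cyclase receptor, fell to 8.63 ± 0.238 in aged, against 11.5 ± 1.18 in young (adjusted p = 0.012). Gucy1b1 and Gucy1a1, the subunits of the nitric oxide receptor, and the cyclic GMP phosphodiesterase Pde5a were the other lower genes. Pde5a, at 0.837 ± 0.0902 in aged and 1.54 ± 0.125 in young, reached the minimum of 1 FPKM through its young libraries alone, and was called with no minimum (limma adjusted p = 0.0156). With no minimum the calls of Gucy1b1 (limma adjusted p = 0.0508) and Gucy1a1 (0.0781) ended, which left 2 lower genes. The call of Gucy1b1 also ended without aged replicate 3, young replicate 2 or young replicate 3, and that of Pde5a without aged replicate 2, young replicate 2 or young replicate 3. Npr3 is also an endocardial marker, and the 5 endocardial markers summed to 32 to 35.3 in aged and 31.7 to 38.5 in young. The lower count was 2 without aged replicate 2 or aged replicate 3 and 1 without young replicate 2 or young replicate 3, and the higher count was 2 without aged replicate 3.

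**Figure D5:**
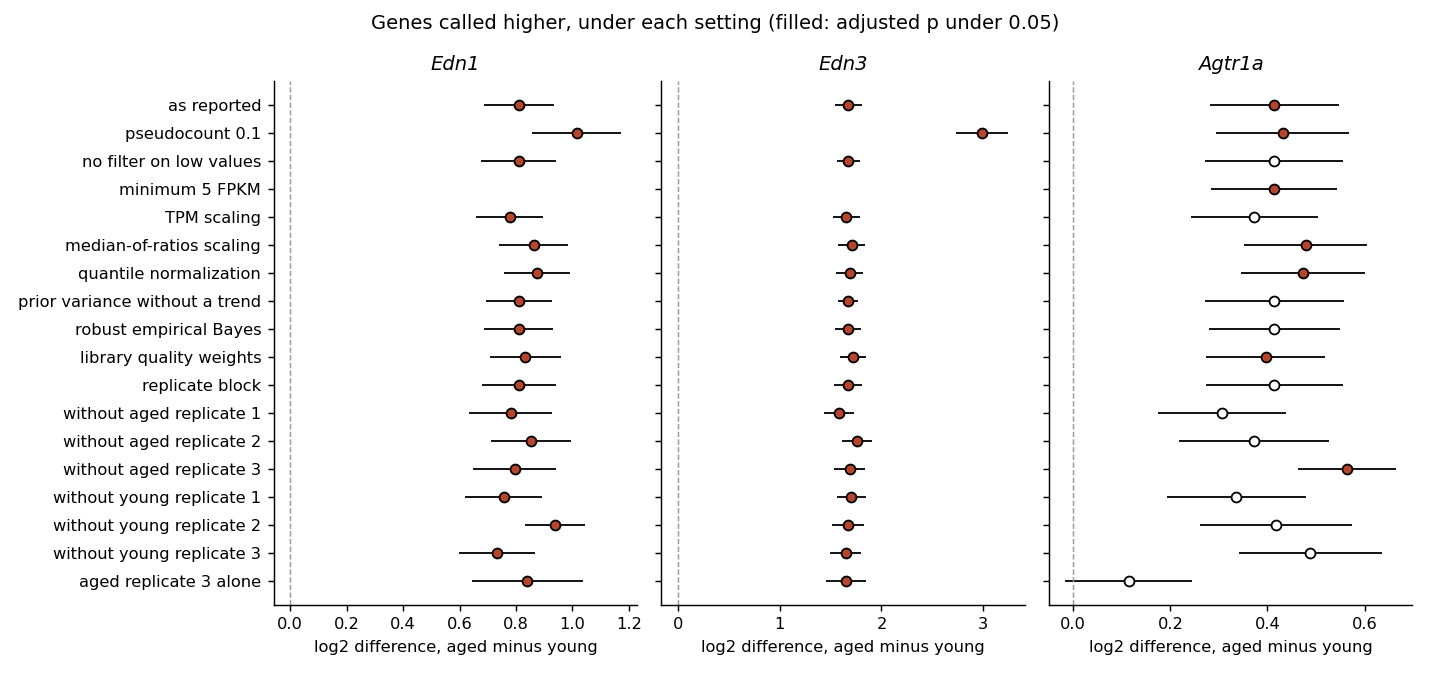
Log2 difference, aged minus young, of Edn1, Edn3 and Agtr1a under each setting; bars are the standard error and filled circles mark an adjusted p under 0.05 by limma. Edn1 and Edn3 stay filled in each of the 16 other settings in which they were tested, and Agtr1a in 6 of 17.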

How the data were processed

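Per the labels' protocols, oligo(dT)-selected RNA of 3 aged and 3 young ventricle samples was read from both ends for 100 bases. The authors deposited 1 table of FPKM values with 2 decimals, per the file headers. Named without roles in the submitters' processing notes are the build mm10, RSEM 1.2.12, Bowtie2 2.2.5, DESeq2 1.4.5 and HISAT2 2.0.4. The annotation and any filter were not given in the sources used here. The smallest value above 0 was 0.01, so the rounding hides single fragments of low genes and no read counts were recovered.

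The 11860 of 18181 genes that averaged 1 FPKM or more over the libraries of a fit were compared on log2(FPKM + 1) with limma 3.58.1 (eBayes with a mean trend) in R 4.3.3, two-sided, with Benjamini-Hochberg adjustment over all of them and a threshold of 0.05. The fit and its adjustment, without the step that sets the minimum level, were also run on simulated data with independent noise. The outcome of that run is not reported here. Ratios within a library used log2(FPKM + 0.1) and exact permutation tests. Coordinates and promoters came from RefSeq (GRCm38.p6, the assembly called mm10), with 18128 gene IDs matched; of the 9 members, 8 have a promoter entry, and Agtr1a has none. The members and the lists were chosen with earlier results of these data known. Named genes were the members, up to 4 called genes of each list with the largest statistic, several fixed genes (Cma1, Agtrap, Agtr1b, Edn3, Nppa and Nppb) and the 3 nearest profiles of each called member; others complete a count or were chosen after their values were seen. A few listed genes and ratios are not reported here. Alternatives were other pseudocounts, filters, scalings, variance models, a replicate block and left-out libraries. Figures were drawn in Python 3.11.15 with pandas 2.3.3 and matplotlib 3.10.9.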

Additional observations from a re-analysis of the deposited data

How the results depend on the processing

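Edn1 and Edn3 kept their direction and call in each of 16 alternatives; with a minimum of 5 FPKM neither was tested. Agtr1a kept its direction in 17 alternatives but its call in 6. It was not called with no filter on low values (log2 difference 0.41, adjusted p = 0.0973 by limma), on TPM (0.37, adjusted p = 0.058), with a prior variance without a trend (0.41, 0.0737) or robust empirical Bayes (0.41, 0.0515), or from aged replicate 3 alone (0.11, 0.607); leaving out 1 library gave 0.31 to 0.56. The count of members called higher was accordingly 1 in those settings and with a minimum of 5 FPKM, and 1 to 2 without 1 library.

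The sign turned for Ednra on TPM (-0.0225), with library quality weights (-0.0542) and over left-out libraries (-0.0844 to 0.14). It turned for Ednrb with median-of-ratios scaling (0.0507), quantile normalization (0.0705), aged replicate 3 alone (0.0528) and left-out libraries (-0.16 to 0.0748). With aged replicate 3 alone it also turned for Ace (0.11) and for Ece1 (0.00297). The log2 ratio of Ednra to Ednrb ranged from -0.18 to 0.18 over left-out libraries, and that of Agtr2 to fibroblast markers from -0.0584 to 0.39. No call was lost or gained by Agt, Ace, Ece1, Ednra or Ednrb in any alternative in which they were tested.

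Over all genes, 718 to 1020 were higher and 1164 to 1958 lower without 1 library, and 420 and 552 with aged replicate 3 alone. Of the pathway lists 5 genes were higher with a minimum of 5 FPKM; 21 were lower with no filter, 11 with aged replicate 3 alone, and 12 to 30 without 1 library. Of the lists, the receptor signalling genes had 6 and the natriuretic axis 2 lower with no filter. With aged replicate 3 alone, Prep, Rnpep, Nos3, Cpd, Npr1, Gucy1b1 and Pde5a lost their call. The depth is unknown, so the counting error of low genes such as Agtr2, Edn2 and Mas1 cannot be given.

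Same-numbered aged and young libraries did not deviate together (correlations across genes of 0.0413, -0.0795 and 0.0378), and not every library correlated best with its own number. With a replicate block the log2 difference of Agtr1a was 0.41 (adjusted p = 0.0728 by limma), 1 member was called higher, 8 response genes were lower, 1002 genes were higher and 1783 lower over the table, Nppa was called (adjusted p = 0.0292), and Edn1 was at an adjusted p of 0.00543.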
